A study of Homo sapiens with 4 samples.

Results

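ZNF genes, which belong to the largest family of human transcription factor genes, were examined in TE-1 cells, an established line of esophageal squamous cell carcinoma. The group holds each gene whose symbol is ZNF followed by a number and at most 1 letter, whose probe set carries this symbol alone, and whose log2 expression averaged at least 6.5 over 4 Affymetrix arrays. Of 305 ZNF genes measured, 187 met this level and 118 did not, among 14232 genes and 22011 rows of the arrays in all. The genes were therefore chosen by their mean level over both groups, and that level is given only as a description. It ranged from 6.51 to 10.41 with a median of 7.93. The genes just inside the limit were ZNF114 (6.51), ZNF189 (6.53) and ZNF541 (6.53), and those just outside were ZNF169 (6.48), ZNF271P (6.48) and ZNF540 (6.43).

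The 4 arrays held RNA of TE-1 cells transfected with siRNA against FOXM1, called TE-1-siFOXM1 (n = 2), and of TE-1 cells transfected with scrambled siRNA, called TE-1-SCR (n = 2). All cells were of this 1 line and all had gone through lipid transfection, so no untransfected cells served as a further control. The authors deposited log2 values after robust multi-array averaging (RMA), and each fold or difference given here was calculated from them. FOXM1, the gene targeted, averaged 8.17 ± 0.16 in TE-1-siFOXM1 and 10.15 ± 0.56 in TE-1-SCR (SD, n = 2 each), a log2 difference of -1.98 (limma adjusted p = 1, unadjusted p = 0.00126). No source used here says whether replicates were separate cultures, so all p-values measure only how far these arrays spread, and part of that spread may be technical. With 2 arrays against 2, an exact permutation test of any single gene cannot give a two-sided p below 0.333. The median of all rows was between 7.54 and 7.63 in the 4 arrays, and each pair of arrays correlated with r between 0.984 and 0.992 across rows.
Of 11 squamous and simple epithelial markers, 6 were measured, at mean levels between 7.94 and 13.55 and with a median difference of 0.10, and all 6 differences were above 0. The highest was in the desmosomal cadherin DSG3 (0.39) and the lowest in the adhesion molecule EPCAM (0.06). Of the 6, 3 (50%) were higher and 0 lower without overlap, where all 14232 genes had 13.5% and 13.8%. The median of the 6 was 0.035 without SCR replicate 2. Of 10 markers of non-epithelial cells, 9 were measured, at mean levels between 3.58 and 11.18 and with a median difference of 0.11 (-0.02 without siFOXM1 replicate 2). Of these, 6 were above 0, and 3 were higher (33.3%) and 2 lower (22.2%) without overlap, beside the same 13.5% and 13.8%. The leukocyte antigen PTPRC had the lowest level, with a difference of -0.15, and the matrix proteoglycan DCN had a difference of 0.31 at a mean level of 3.82, whereas CD68, a lysosomal protein of macrophages, was at 11.18 with a difference of 0.17 and no overlap. The part of either marker set in the values of the ZNF genes was not tested. In such bulk RNA, fewer cells with a transcript cannot be told apart from less of it in each cell.

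Zinc fingers of the C2H2 type are small folds held by a zinc ion, and a row of them reads a stretch of DNA. Many ZNF proteins also carry a KRAB domain, which brings in the corepressor TRIM28 (KAP1), the histone methyltransferase SETDB1 and heterochromatin proteins, and much of this family is known for silencing transposable elements. KRAB-ZNF genes arose by repeated local duplication. They therefore lie in clusters, many of them on chromosome 19, and neighbours often resemble each other in sequence.

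Several of the members furthest above TE-1-SCR were neighbours of each other, and some of these also had promoters that resembled each other. Sequences were available for 156 of the 187 genes, as 300 bases from 250 before to 50 after the annotated start (RefSeq, GRCh38.p14). Over all 12090 pairs of these promoters, the median identity in a global alignment was 50.4%, and it was 70% or more in 7 pairs. Of these 7 pairs, 6 were those among ZNF680, ZNF107, ZNF138 and ZNF92, 4 neighbours on chromosome 7 (79.0 to 83.4%), and 1 was that of ZNF468 and ZNF701, neighbours on chromosome 19 (81.0%). Both sets were chosen for display with their values known. All 6 genes had both TE-1-siFOXM1 arrays above both TE-1-SCR arrays, as did 24.6% of the 187 genes and 12.5% of the 10187 genes with a mean of at least 6.5. Their sequences are shown because they hold the closest promoters of the group. All but ZNF92 are among the 10 largest increases without overlap described below.
In the promoters on chromosome 7, capitals mark each stretch of at least 10 bases that all 4 share, which covers 60 or 61 of the 300 bases:
ZNF680, chr7:64563022-64563321, minus strand: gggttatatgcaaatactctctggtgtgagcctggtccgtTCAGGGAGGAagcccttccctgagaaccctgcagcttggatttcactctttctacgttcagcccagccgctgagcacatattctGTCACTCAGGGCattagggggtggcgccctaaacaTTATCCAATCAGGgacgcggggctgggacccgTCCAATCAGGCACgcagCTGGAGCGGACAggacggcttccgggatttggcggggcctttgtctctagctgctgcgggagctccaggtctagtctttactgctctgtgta
ZNF107, chr7:64665883-64666182, plus strand: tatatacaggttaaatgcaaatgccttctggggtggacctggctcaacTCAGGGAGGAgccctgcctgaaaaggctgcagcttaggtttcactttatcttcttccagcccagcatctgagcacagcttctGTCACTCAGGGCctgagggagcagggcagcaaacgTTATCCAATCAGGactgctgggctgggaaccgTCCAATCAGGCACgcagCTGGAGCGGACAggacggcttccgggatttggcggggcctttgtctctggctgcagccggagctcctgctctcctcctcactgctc
ZNF138, chr7:64794178-64794477, plus strand: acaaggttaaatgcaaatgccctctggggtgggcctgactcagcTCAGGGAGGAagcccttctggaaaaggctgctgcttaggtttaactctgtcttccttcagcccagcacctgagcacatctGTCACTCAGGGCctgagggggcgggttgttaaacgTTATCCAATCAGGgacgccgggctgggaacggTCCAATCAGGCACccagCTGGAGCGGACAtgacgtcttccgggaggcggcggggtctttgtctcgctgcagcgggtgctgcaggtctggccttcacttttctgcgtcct
ZNF92, chr7:65373605-65373904, plus strand: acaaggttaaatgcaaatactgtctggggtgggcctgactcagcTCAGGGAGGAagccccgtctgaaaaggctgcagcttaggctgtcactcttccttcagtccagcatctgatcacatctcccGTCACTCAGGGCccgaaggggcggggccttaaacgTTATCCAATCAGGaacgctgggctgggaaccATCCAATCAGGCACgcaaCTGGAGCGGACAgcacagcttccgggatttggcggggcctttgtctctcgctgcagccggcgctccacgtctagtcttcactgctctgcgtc
The stretches in capitals hold CCAAT in the same surroundings in all 4 promoters, and each promoter also holds cttccgg, the ETS letters taken up below, downstream of the last of them.
In ZNF468 and ZNF701, capitals mark each stretch of at least 10 bases common to both, which covers 139 and 140 bases:
ZNF468, chr19:52857570-52857869, minus strand: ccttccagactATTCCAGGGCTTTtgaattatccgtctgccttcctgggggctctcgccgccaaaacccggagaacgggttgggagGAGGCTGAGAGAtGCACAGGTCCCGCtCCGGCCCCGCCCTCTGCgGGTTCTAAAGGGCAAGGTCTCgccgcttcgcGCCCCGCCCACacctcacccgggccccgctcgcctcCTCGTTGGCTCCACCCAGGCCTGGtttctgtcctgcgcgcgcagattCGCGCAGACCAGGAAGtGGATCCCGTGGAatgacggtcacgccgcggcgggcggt
ZNF701, chr19:52570037-52570336, plus strand: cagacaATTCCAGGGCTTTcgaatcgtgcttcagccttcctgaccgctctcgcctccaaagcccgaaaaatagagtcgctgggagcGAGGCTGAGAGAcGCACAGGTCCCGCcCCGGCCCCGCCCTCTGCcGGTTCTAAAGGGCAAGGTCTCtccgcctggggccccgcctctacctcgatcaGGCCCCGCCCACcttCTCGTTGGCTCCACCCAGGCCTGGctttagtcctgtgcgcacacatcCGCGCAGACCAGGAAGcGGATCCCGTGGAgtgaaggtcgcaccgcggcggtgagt
Whether the probes of such close relatives also took up transcripts of their neighbours was not tested, and this applies to every run of neighbouring ZNF genes below.

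The 1.5-fold criterion was met by 2 of the 187 ZNF genes with higher expression after FOXM1 silencing and by 0 with lower expression. Over the 10187 genes with a mean of at least 6.5, these shares were 0.294% and 0.344%. ZNF468 had log2 expression of 8.01 and 7.05 in the TE-1-siFOXM1 replicates and of 6.64 and 6.62 in the TE-1-SCR replicates. The difference was 0.90 (standard error 0.33), or 1.87-fold, and replicate 1 of TE-1-siFOXM1 lay far above replicate 2. ZNF701, which like ZNF468 encodes a KRAB zinc finger protein, was at 7.80 and 7.31 in TE-1-siFOXM1 and at 6.84 and 6.99 in TE-1-SCR. Its difference was 0.64 (standard error 0.21), or 1.56-fold. In both genes the groups did not overlap. Without siFOXM1 replicate 1 the differences were 0.42 for ZNF468 and 0.39 for ZNF701, which ended both calls, and without SCR replicate 1 that of ZNF701 was 0.57, just short of the criterion. The number of ZNF genes past the criterion was lower without siFOXM1 replicate 1 and higher when any other single array was left out. The share of all genes past it in these settings is not given here.
No ZNF gene passed limma with Benjamini-Hochberg adjustment over all 22011 rows (adjusted p = 1 for every member), and the share of all rows that passed was 0%. Unadjusted, p was under 0.05 in 4 members that were higher, namely ZNF426, ZNF680, ZNF701 and ZNF468, and for 0 members that were lower. Over genes at this level the shares were 0.668% and 0.825%.

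Next in size after ZNF468 and ZNF701 was ZNF480, another KRAB gene of the same stretch of chromosome 19, with 8.93 and 8.24 in TE-1-siFOXM1 and 8.05 and 7.97 in TE-1-SCR. The difference of 0.58 (1.49-fold) was set largely by replicate 1, since without siFOXM1 replicate 1 it was 0.23. On chromosome 7, ZNF680 was at 8.64 and 8.39 in TE-1-siFOXM1 against 7.83 and 8.05 in TE-1-SCR, a difference of 0.57 (standard error 0.17, 1.49-fold). Its neighbour ZNF138 was at 8.65 and 8.24 against 8.06 and 7.84, a difference of 0.50 (standard error 0.20), or 0.30 without siFOXM1 replicate 1. ZNF107 was at 7.89 and 7.91 against 7.35 and 7.64, a difference of 0.41, or 0.26 without SCR replicate 1. Thus TE-1-siFOXM1 was higher in each of these 3 neighbours, with the larger gap in replicate 1.
ZNF92, the last of the 4, was at 9.09 and 8.53 in TE-1-siFOXM1 against 8.48 and 8.39 in TE-1-SCR, a difference of 0.38 (standard error 0.23) that was 0.10 without siFOXM1 replicate 1. ZNF426, a KRAB gene of another stretch of chromosome 19, was at 8.13 and 8.03 against 7.55 and 7.64. With a difference of 0.48 (standard error 0.14) and an unadjusted p of 0.018 in limma, it had the lowest unadjusted p of the 187 genes, and its difference stayed between 0.43 and 0.54 when any 1 array was left out.
ZNF121, which lies in the same stretch as ZNF426, was at 7.38 and 6.76 in TE-1-siFOXM1 against 6.61 and 6.62 in TE-1-SCR. Its difference of 0.45 was 0.14 without siFOXM1 replicate 1. ZNF774 on chromosome 15 was at 8.24 and 7.77 against 7.70 and 7.37, a difference of 0.47 that was 0.23 without siFOXM1 replicate 1 and 0.30 without SCR replicate 2. ZNF202 on chromosome 11 encodes a SCAN and KRAB protein known as a repressor of genes of lipid metabolism. It was at 7.73 and 7.46 against 7.23 and 7.14, a difference of 0.41.

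The decreases were smaller. The largest was in ZNF131, which encodes a BTB/POZ zinc finger protein, with 9.25 and 9.23 in TE-1-siFOXM1 and 9.57 and 9.57 in TE-1-SCR. Replicates were close to each other in both groups, and the difference of -0.33 (standard error 0.13) stayed between -0.34 and -0.32 whichever array was left out (limma unadjusted p = 0.055, adjusted p = 1). ZNF398 was at 8.61 and 8.62 against 8.93 and 8.75, a difference of -0.23, and of -0.13 without SCR replicate 1. Among the genes without overlap, ZNF839 (-0.21) and ZNF713 (-0.19) came next. ZNF746, also called PARIS and known as a substrate of the ubiquitin ligase parkin, was at 9.70 and 9.73 against 9.91 and 9.84, a difference of -0.16. Like ZNF398 it is a KRAB gene of 1 run on chromosome 7. ZNF827, which recruits the NuRD complex to telomeres, was at 8.96 and 8.85 against 9.22 and 8.97, with a difference of -0.19 that was -0.07 without SCR replicate 1. ZNF250 (-0.13), ZNF778 (-0.11), ZNF703 (-0.10) and ZNF513 (-0.08) were the other genes among the 10 lowest without overlap, and these 4 differences were also closer to 0, between -0.06 and -0.04, when SCR replicate 1 was left out. ZNF703 is known as an oncogene that is amplified in breast cancer.

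**Figure D1:**
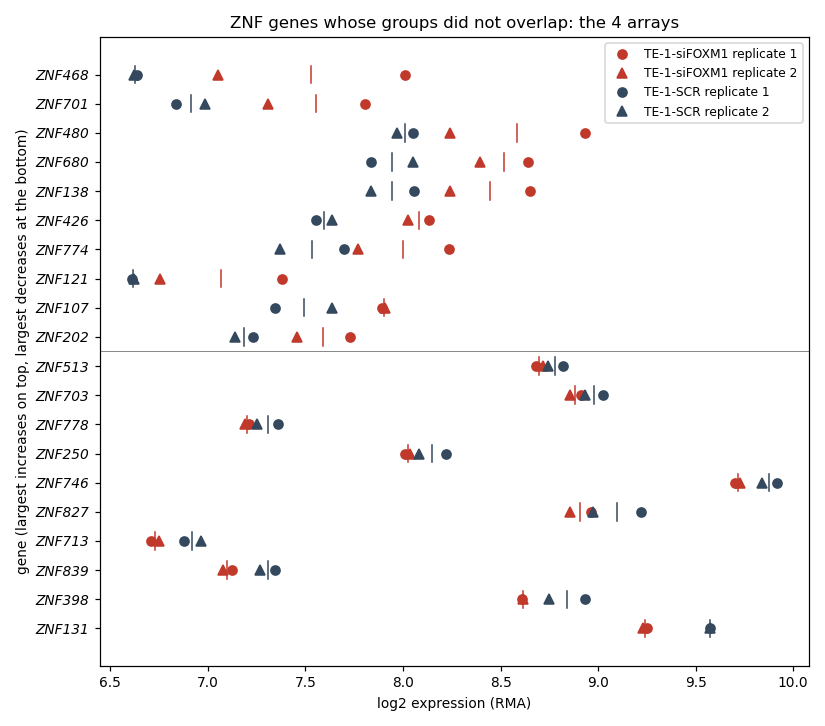
Log2 expression (x axis) of the 10 ZNF genes with the largest increases (top) and the 10 with the largest decreases (bottom) among those whose groups did not overlap, with 1 point per array, colored by group and shaped by replicate. The points of ZNF468 spread from 6.62 to 8.01, whereas those of ZNF131 form a pair at 9.23 and 9.25 and a pair at 9.57.

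Across the 187 ZNF genes, 134 (71.7%) had a difference above 0 and 53 below it, with a median of 0.08 and quartiles of -0.02 and 0.19. For the 10187 genes at this level the median was 0.01 and 52.7% were above 0. The groups did not overlap in 46 ZNF genes that were higher (24.6%) and in 12 that were lower (6.42%), and they overlapped in 129. Over genes at this level, 12.5% were higher and 12.2% lower without overlap. The median was 0.06 in the replicate 1 arrays and 0.07 in the replicate 2 arrays, where genes at this level had -0.02 and 0.03. Of the ZNF genes, 85 (45.5%) were above 0 in both and 30 (16.0%) below 0 in both. These shares were 31.4% and 26.9% for genes at this level.
The shift was smaller than the differences between arrays. Relative to each gene's mean over the 4 arrays, the median ZNF gene was at 0.10 and -0.03 in the TE-1-siFOXM1 replicates and at 0.02 and -0.09 in the TE-1-SCR replicates, so the groups overlapped. Leaving out siFOXM1 replicate 1 gave a median difference of 0.03, and leaving out SCR replicate 2 gave 0.02, while it was 0.14 and 0.13 when the other array of each group was left out. For genes at this level the median was then -0.05, -0.08, 0.06 and 0.08 in the same order. The number of ZNF genes above 0 ranged from 96 (without SCR replicate 2) to 150 (without SCR replicate 1).
By level, limits chosen after the data were seen, the median difference was 0.11 in 67 genes between 6.5 and 7.5, 0.07 in 72 genes between 7.5 and 8.5, and 0.04 in 48 genes at 8.5 or more. Without overlap, 21 genes were higher and 3 lower in the lowest bin, 19 and 2 in the middle bin, and 6 and 7 in the highest (12.5% and 14.6%, where genes at 6.5 or more had 12.5% and 12.2%). When SCR replicate 2 was left out, the medians of the 3 bins were 0.05, -0.01 and -0.04.

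By position, the 58 ZNF genes on chromosome 19 had a median difference of 0.16, and 52 of them (89.7%) were above 0. Without overlap, 19 were higher (32.8%) and 1 was lower (1.72%), where genes at this level had 12.5% and 12.2%. The median was 0.19 in replicate 1 and 0.11 in replicate 2, and it ranged from 0.07 (without siFOXM1 replicate 1) to 0.18 (without siFOXM1 replicate 2). The 129 ZNF genes on other chromosomes had a median of 0.03, with 82 (63.6%) above 0. Of the 129, 27 (20.9%) were higher and 11 (8.53%) lower without overlap. Their median was -0.01 without siFOXM1 replicate 1 and -0.04 without SCR replicate 2, where genes at this level had -0.05 and -0.08.
Other genes of chromosome 19 also had a median above 0, except when SCR replicate 2 was left out. Among 675 genes on it at this level that are not in the group, the median was 0.06, and 478 (70.8%) were above 0. Without overlap, 134 of the 675 were higher (19.9%) and 31 lower (4.59%), beside 12.5% and 12.2% of genes at this level. The median of the 675 was 0.004 in replicate 1 and 0.10 in replicate 2. Leaving out SCR replicate 2 gave -0.01, against 0.12 when SCR replicate 1 was left out. Genes at this level then had -0.08 and 0.08 in the same order. The part of the chromosome in the values of its ZNF genes was not tested.

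**Figure D2:**
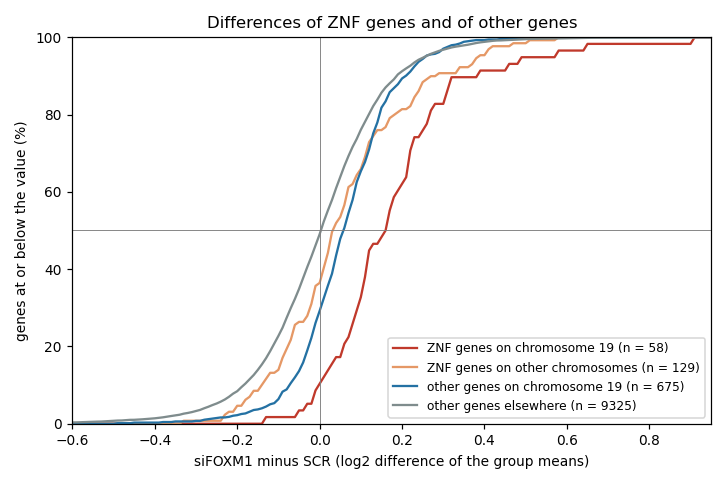
Share of genes (y axis, %) whose log2 group difference, TE-1-siFOXM1 minus TE-1-SCR, is at or below the value on the x axis, for ZNF genes on chromosome 19 (n = 58), ZNF genes on other chromosomes (n = 129), other genes on chromosome 19 (n = 675) and other genes elsewhere (n = 9325), all with a mean of at least 6.5. The curve of the ZNF genes on chromosome 19 lies furthest right and crosses 50% at a median of 0.16, against 0.03, 0.06 and a value near 0 for the others.

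Runs of neighbours were formed by joining ZNF genes whose starts lay at most 500 kb apart, and 7 runs held at least 5 genes of the group. In the run from ZNF175 to ZNF331 on chromosome 19, all 10 genes had differences above 0, from 0.08 for ZNF175 to 0.90 for ZNF468, with a median of 0.24. Beside ZNF468, ZNF701 and ZNF480, no overlap was seen in ZNF331 (0.28) and ZNF577 (0.15). The others were ZNF160 (0.26), ZNF614 (0.22), ZNF600 (0.21) and the pseudogene ZNF321P (0.17). Without siFOXM1 replicate 1, ZNF175 (-0.16), ZNF614 (-0.06) and ZNF600 (-0.04) were below 0, as was ZNF160 (-0.09) without SCR replicate 1. The median of this run was 0.54 in replicate 1 but 0.07 in replicate 2, and 0.14 when either replicate 1 array was left out.
In the run from ZNF414 to ZNF846 on chromosome 19, which holds ZNF426 and ZNF121, all 6 genes were above 0 and the median was 0.20, with 0.26 in replicate 1 and 0.15 in replicate 2. Without siFOXM1 replicate 1 the median was 0.10, and ZNF266 (-0.11) and ZNF561 (-0.02) were below 0. ZNF266 was also below 0 without SCR replicate 2 (-0.13). The run from ZNF264 to ZNF446 was the one with the most genes. Of its 15, 11 were above 0, with a median of 0.12 that was 0.04 without siFOXM1 replicate 1. The groups did not overlap in 4 higher genes and 1 lower gene, where genes at this level had shares of 12.5% and 12.2%. It holds ZNF274, a KRAB protein that recruits SETDB1 to the 3′ ends of ZNF genes themselves, with 8.78 and 8.67 in TE-1-siFOXM1 against 8.76 and 8.45 in TE-1-SCR, which overlap. The runs from ZNF628 to ZNF835 on chromosome 19 (8 genes, 7 above 0), from ZNF205 to ZNF597 on chromosome 16 (6 genes, 5 above 0) and from ZNF48 to ZNF267 on chromosome 16 (7 genes, 6 above 0) had medians of 0.09, 0.10 and 0.08. The 2 runs on chromosome 16 had medians of -0.04 and 0.02 without SCR replicate 2, where genes at this level had -0.08. Without SCR replicate 1 their medians were 0.21 and 0.25, where genes at this level had 0.08.
One run had a median below 0. From ZNF786 to ZNF862 on chromosome 7, 6 of 7 genes were below 0, and the median was -0.07, with -0.09 in replicate 1 and -0.04 in replicate 2. ZNF398 and ZNF746 were lower without overlap, ZNF467 (-0.08), ZNF212 (-0.07), ZNF786 (-0.07) and ZNF282 (-0.01) overlapped, and ZNF777 was at 0.12.
The run from ZNF722 to ZNF92 on the same chromosome held only the 4 genes whose promoters are printed above and was picked with its values known. All 4 were higher without overlap, by 0.38 to 0.57 with a median of 0.46, where 12.5% of genes at this level were higher without overlap. The median was 0.60 in replicate 1 and 0.31 in replicate 2, and it ranged from 0.36 (without siFOXM1 replicate 1) to 0.68 (without siFOXM1 replicate 2). The 124 genes in none of these runs had a median of 0.05, with 84 above 0, and this median was 0.003 without siFOXM1 replicate 1 and -0.03 without SCR replicate 2.

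**Figure D3:**
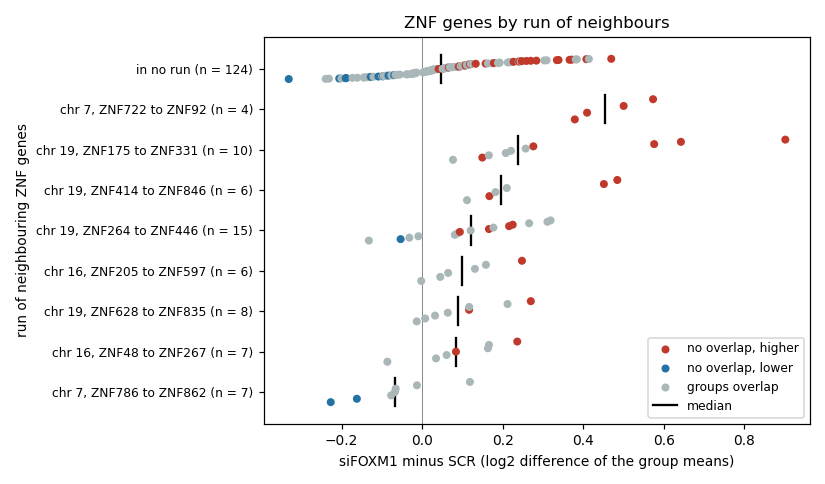
Log2 group difference, TE-1-siFOXM1 minus TE-1-SCR (x axis), of each of the 187 ZNF genes, 1 point per gene, by run of neighbours (y axis), colored by whether the 2 groups overlapped, with black bars at the medians. The 4 genes of the run from ZNF722 to ZNF92 lie between 0.38 and 0.57, and 6 of 7 genes of the run from ZNF786 to ZNF862 lie below 0.

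Promoters were also searched on both strands for short letter patterns, which were chosen after the differences were seen. CCGGAAG (or CTTCCGG), the core bound by ETS factors, was found in 58 of the 156 ZNF promoters (37.2%), against 17.5% of the 8273 promoters of genes at this level and 10.7% of all 27305 promoters. Of 42 promoters of genes higher without overlap, 16 (38.1%) held it, as did 3 of 7 of genes lower without overlap, and the median difference was 0.08 in ZNF genes with it and 0.10 in those without. ACTACAA (or TTGTAGT), part of the motif of ZNF143, was in 12 ZNF promoters (7.69%), against 3.48% of genes at this level and 2.95% of all.
TAAACA (or TGTTTA), the core bound by forkhead factors such as FOXM1, was in 7 ZNF promoters (4.49%), against 6.23% of genes at this level and 12.4% of all. The median difference was -0.07 in these 7 genes and 0.09 in the ZNF genes without it. Of 42 promoters of genes higher without overlap, 2 (4.76%) held it, as did 1 of 7 of genes lower without overlap. How far the median of the 7 genes depends on 1 array was not tested. TTTGAA (or TTCAAA), the cell cycle homology region of many mitotic genes, was in 14 (8.97%), the same share as in genes at this level, and in 15.4% of all. GGGCGG (or CCGCCC) was in 64.7% of ZNF promoters and 69.9% of those at this level, and CCAAT (or ATTGG) in 44.2% and 36.2%. The median GC content was 63.7% in ZNF promoters, 65.7% in those of genes at this level and 58.3% in all.

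By role, the group holds 19 of 21 listed ZNF genes of transcription and chromatin. Their median difference was 0.06, 14 of 19 were above 0, none was 1.5-fold apart, and 4 were higher (21.1%) and 2 lower (10.5%) without overlap, beside 12.5% and 12.2% of genes at this level. Without SCR replicate 2 the median was -0.04. The highest was in ZNF143, an activator of snRNA genes and of many promoters of protein-coding genes. Its values were 8.20 and 7.21 in TE-1-siFOXM1 and 7.84 and 7.25 in TE-1-SCR, so the difference of 0.16 was far smaller than the gap between the replicates. ZNF131 was the lowest. ZNF217, an amplified oncogene of several carcinomas, was at 9.31 and 9.14 against 9.55 and 9.19, a difference of -0.14 with overlap. ZNF750, a regulator of squamous differentiation, was near the lower limit with 6.33 and 6.85 against 6.37 and 6.64, and its groups overlapped too. ZNF639, also called ZASC1 because it was found amplified in esophageal squamous cell carcinoma, was at 8.20 and 7.61 against 8.16 and 7.64, a difference of 0.01.
Of 11 listed ZNF genes that act on RNA, the ribosome or the spindle, 10 were in the group, with a median of 0.03 (-0.03 without SCR replicate 2) and 7 above 0. The highest was ZNF830 (0.24) and the lowest ZNF346, which binds double-stranded RNA (-0.07). ZNF593 and ZNF622, which serve in making the large ribosomal subunit, had differences of 0.02 and 0.04. Of 16 KRAB-ZNF genes with described roles, 8 were measured and all 8 were above 0, from 0.06 for ZNF43 to 0.41 for ZNF202, with a median of 0.18. Of these, 4 were in the group, and ZNF8 had the lowest difference among them (0.09). The level of ZNF43 was only 3.78. Of all 8, 5 (62.5%) were above 0 in both the replicate 1 and the replicate 2 arrays, beside 29.6% of all 14232 genes. Over all 14232 genes, 51.0% had a group difference above 0.
The partners of KRAB domains had no common direction. Of 12 measured genes of the KRAB corepressor and the HUSH complex, 6 were above 0 and 6 below, with a median of -0.001. TRIM28 was at 11.23 and 11.17 in TE-1-siFOXM1 and at 11.37 and 11.02 in TE-1-SCR, and SETDB1 had a difference of -0.03. The highest was TASOR, a HUSH subunit (0.28, and -0.05 without siFOXM1 replicate 1), and the lowest CBX5, a heterochromatin protein (-0.11). Among relatives named ZSCAN, ZKSCAN, ZBTB or ZFP, 53 genes reached the level of 6.5. Their median was 0.02 (-0.08 without SCR replicate 2), and 34 of 53 (64.2%) were above 0, beside 52.7% of genes at this level. At least 1.5-fold higher was 1 of them, a share of 1.89% beside 0.294%. Without overlap 9 were higher (17.0%) and 3 lower (5.66%), beside 12.5% and 12.2%.

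The difference between replicates 1 and 2 was larger for most ZNF genes than that between the groups, as it was for most genes at this level. Its size exceeded that of the group difference in 113 of 187 ZNF genes (60.4%), with median sizes of 0.14 and 0.11, and in 67.4% of genes at this level, with median sizes of 0.17 and 0.09. Replicate 1 was higher on average in 141 genes (75.4%), with a median of 0.12, which was 0.13 in TE-1-siFOXM1 and 0.11 in TE-1-SCR. Genes at this level had a median of 0.13, with 75.2% above 0. In both groups replicate 1 was higher in 104 ZNF genes (55.6%), where genes at this level reached 59.9%, and lower in 18. In limma with a replicate term, 31 members had an unadjusted p under 0.05, a share below the 21.8% of genes at this level. No member passed the adjusted p of 0.05 (the lowest was 0.198), and the share of all rows that passed was 0%. Replicate 1 was at least 1.5-fold higher in 2 ZNF genes and lower in 2, while the shares of genes at this level were 3.21% and 0.501%.
ZNF143 had the largest difference (0.79), followed by ZNF692 (0.61), ZNF174 (0.57), ZNF318 (0.56) and ZNF639 (0.55). The opposite held for ZNF135, a KRAB gene, with 6.98 and 7.40 in TE-1-siFOXM1 and 6.45 and 7.29 in TE-1-SCR, a mean difference of -0.63. ZNF460 was at 9.63 and 10.20 against 9.40 and 10.08 (-0.62), and ZNF160 (-0.40), ZNF750 (-0.40) and ZNF782 (-0.28) followed. In these genes the replicate 2 arrays of both groups were above the replicate 1 arrays. Across the 187 genes, the replicate differences of the 2 groups correlated with r = 0.38, as a description over genes that share the same 4 arrays. Over genes at this level r was 0.59, and over all rows, which include those of low level, it was 0.34.

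**Figure D4:**
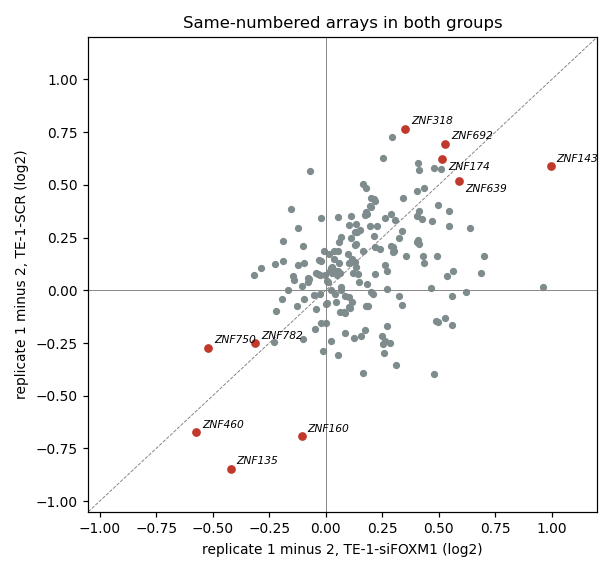
Log2 difference of replicate 1 minus replicate 2 in TE-1-siFOXM1 (x axis) and in TE-1-SCR (y axis), 1 point per ZNF gene, with a dashed line where both are equal. In 104 of the 187 genes both differences are above 0, and ZNF143 lies furthest to the upper right with a mean of 0.79.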

How the data were processed

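Total RNA of TE-1 cells was labeled and hybridized to 4 Affymetrix arrays, 2 per group. The authors deposited log2 expression values, 1 per row and array, made by RMA in Affymetrix Expression Console on build hg18, as listed without versions in the submitters' processing notes. Whether the 4 arrays were normalized jointly is not stated in these sources. Genes were named from the platform annotation where a row had 1 symbol, which held for 14432 of 22011 rows (2408 had several and 5171 none), and a gene with several rows took the one with the highest mean. All 187 ZNF genes matched a RefSeq gene table of GRCh38.p14, which gave names, chromosomes and neighbors.
Group differences were the mean log2 value of TE-1-siFOXM1 minus that of TE-1-SCR, with the 1.5-fold criterion of the methods. All rows were fitted with limma (version 3.58.1, R 4.3.3; 4.87 degrees of freedom) and Benjamini-Hochberg adjustment over 22011 rows, after the calculation had been tested on simulated data. The replicate term was fitted beside the group term. Promoters were aligned globally with Biopython (match 1, mismatch -1, gap opening -2, gap extension -0.5), and identity is the share of alignment columns, gaps included. Precision is limited by the number of arrays.
The named genes are FOXM1, the 10 largest increases and 10 largest decreases without overlap, every ZNF gene at least 1.5-fold apart, the 5 largest and 5 smallest replicate differences of the same sign in both groups, and the extremes of each list; others in a run, a list or a promoter set were named after their values were seen. The ZNF genes, lists, rules and alternatives were chosen with earlier results of these data known. Classes by protein domain were planned but not analysed here.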

Additional observations from a re-analysis of the deposited data

How the results depend on the processing

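The number of ZNF genes at least 1.5-fold higher was 2, and it ranged from 0 (without siFOXM1 replicate 1) to 12 (without siFOXM1 replicate 2) when 1 array was left out, with 5 without SCR replicate 1 and 6 without SCR replicate 2. It was 0 at a level of at least 7.5 and 6 with no level minimum, 3 with linear means or with the mean of a gene's rows, and 2 after centring or quantile normalization. None was 1.5-fold lower and none passed the adjusted p under any alternative run. With the replicate block, 0 ZNF genes passed it and 14 had an unadjusted p under 0.05 in limma, against 4 without the block. Of all 22011 rows, 1576 had such a p with the block and 680 without it. With trend and robust estimation, 6 ZNF genes and 661 of the 22011 rows had such a p. With only the 14885 rows at 6.5 or more fitted, 7 ZNF genes and 322 rows had it. The numbers are shared by the labels of both groups, but no label ties a number to a culture or day, and the deviations of same-numbered arrays from their group means correlated with r = 0.59 over genes at 6.5 or more, 0.34 over all rows and 0.38 over the ZNF genes. The median difference of the ZNF genes stayed above 0 in every alternative, from 0.02 to 0.14. The median of replicate 1 minus 2 was 0.12, and 0.04 after centring but 0.0047 after quantile normalization. Of the 40 genes named by rule, quantile normalization turned the sign of ZNF639 alone (-0.00047), and the block, centring and the mean of rows turned none. Leaving out 1 array turned the group difference of the following genes, given with their lowest and highest values: ZNF135 (-0.10 to 0.74), ZNF460 (-0.16 to 0.51), ZNF160 (-0.088 to 0.60), ZNF750 (-0.17 to 0.35), ZNF143 (-0.33 to 0.66), ZNF692 (-0.38 to 0.31), ZNF174 (-0.18 to 0.44), ZNF318 (-0.58 to 0.18), ZNF639 (-0.28 to 0.30), TASOR (-0.047 to 0.61), ZNF830 (-0.074 to 0.55), ZNF346 (-0.25 to 0.12) and EPCAM (-0.10 to 0.21). With 1 array left in a group, its spread was taken to equal that of the other group. The cause of these changes was not tested.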

Other observations

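Below the level of 6.5 lay 118 ZNF genes, with a median log2 difference of 0.06 and 68 above 0. The 1.5-fold criterion was met by 4 of them with higher expression after FOXM1 silencing and by 0 with lower expression, and these 4 are named with their values known. Over the 4045 genes below this level, 1.24% were higher and 0.717% lower by this criterion. ZNF616 was at 6.49 and 6.20 in TE-1-siFOXM1 and at 5.36 and 5.43 in TE-1-SCR (1.93-fold). ZNF83 was at 6.73 and 6.85 against 5.90 and 6.22 (1.66-fold), ZNF273 at 6.83 and 6.25 against 5.54 and 6.15 (1.61-fold), and the pseudogene ZNF271P at 7.01 and 6.57 against 5.82 and 6.51 (1.54-fold). The groups did not overlap in any of the 4, although the gap between replicate 2 of TE-1-siFOXM1 and replicate 2 of TE-1-SCR was small in ZNF273 and ZNF271P.
A further 142 rows carried several symbols of which at least 1 was a ZNF symbol, so no gene was named from them. Of these, 67 reached the level of 6.5, 45 of the 67 were above 0 with a median of 0.08, 2 were past 1.5-fold higher and 0 lower, and 19 were higher and 7 lower without overlap. Over the 14885 rows at this level, 0.537% and 0.544% were at least 1.5-fold higher and lower, and without overlap 12.1% were higher and 11.99% lower.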
